A study of Mus musculus with 8 samples.

Results

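The enzymes that make cholesterol and fatty acids were followed as 34 genes, 19 of a sterol arm and 15 of a fatty acid arm, among 17097 genes measured in dermal fibroblasts of ageing mice. They were listed by name as genes driven by the SREBP transcription factors, with earlier results of these data known, and each gene was represented by the probe set of highest mean signal over the 8 samples among those annotated to that gene alone. All 34 were measured. Treatment of the back skin began at an age of 12 months and went on for 6 months, 3 times a week. The GW9662 group (4 animals) received 150 nmol of GW9662, which blocks the nuclear receptor PPARG, in 300 µl acetone, and the vehicle group (4 animals) received 300 µl acetone alone. Both groups therefore shared the acetone, the age and the handling of the skin. Fibroblasts were sorted after collagenase digestion of skin without its subdermis as Pdgfra-positive and CD34-positive cells without CD45, CD117, CD24, CD31 and EpCam, and 5000 cells a sample were amplified over 21 cycles for 1 array per animal. The labels name no strain, sex or genetic change. The study asked what topical PPARG inhibition does to the expressed genes of old dermal fibroblasts.

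Cholesterol and fatty acid synthesis are controlled together by SREBP proteins, which are made as membrane-bound precursors in the endoplasmic reticulum. When sterols are scarce, the escort protein SCAP carries the precursor to the Golgi, where proteases free the part that enters the nucleus. When sterols are plentiful, INSIG proteins hold SCAP back. SREBP-2, the product of Srebf2, mainly drives the sterol enzymes and SREBP-1c, made from Srebf1, mainly the fatty acid enzymes. On promoters SREBP works with the general factors NF-Y, which reads CCAAT, and Sp1, which reads GGGCGG. In skin, lipid synthesis is best known from sebaceous glands and keratinocytes, while fibroblasts use it for their membranes.

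Promoter windows of RefSeq (build GRCm38.p6, 250 bases before to 50 after the start site) were found for 28 of the 34 genes, 15 of the sterol arm and 13 of the fatty acid arm. The genes without a window were Fdps, Fdft1, Sqle, Stard4, Scd1 and Fads1. Letters were searched on both strands, and a gene with several windows counts where any of them holds a match. CCAAT was present in 15 of 15 sterol genes and 9 of 13 fatty acid genes, beside 41.1% of the 27025 genes with a window. GGGCGG was likewise present in 15 of 15 and 9 of 13, beside 38.2%. Both were present in a single window in 15 sterol genes and 5 fatty acid genes, beside 14.5% of all genes, and 1 of the 46 CCAAT matches overlapped a GGGCGG match. The E-box CACGTG was present in 4 sterol and 2 fatty acid genes, beside 8.09%. The core of the sterol regulatory element known from the LDL receptor gene, TCACNCCAC, was present in Hmgcs1 alone, beside 1.44% of all genes. Such a match is a description of letters in a window, not a site.

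The 5 windows shown belong to genes with an unadjusted p under 0.05 between pairs of animals, described further on, and show the range from many matches to none. Each is written along its gene's strand, 5′ to 3′, and capitals mark TCACNCCAC and CCAAT, the latter also as its reverse complement. Hmgcs1 lies at chr13:119690101-119690400 (+), Cyp51 at chr5:4104648-4104947 (-), Insig1 at chr5:28071162-28071461 (+), Acss2 at chr2:155517793-155518092 (+) and Acaca at chr11:84195188-84195487 (+).
Hmgcs1: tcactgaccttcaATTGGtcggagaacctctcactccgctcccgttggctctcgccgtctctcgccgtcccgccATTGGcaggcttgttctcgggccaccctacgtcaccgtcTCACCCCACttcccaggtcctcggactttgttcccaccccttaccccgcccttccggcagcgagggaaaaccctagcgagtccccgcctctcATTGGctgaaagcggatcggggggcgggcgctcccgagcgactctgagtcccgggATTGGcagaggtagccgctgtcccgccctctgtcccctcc
Cyp51: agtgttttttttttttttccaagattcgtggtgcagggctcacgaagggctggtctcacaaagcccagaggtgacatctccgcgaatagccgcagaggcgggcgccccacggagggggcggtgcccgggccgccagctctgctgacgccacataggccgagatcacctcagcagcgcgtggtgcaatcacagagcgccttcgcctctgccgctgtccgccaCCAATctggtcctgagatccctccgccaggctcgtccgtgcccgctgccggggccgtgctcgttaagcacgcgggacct
Insig1: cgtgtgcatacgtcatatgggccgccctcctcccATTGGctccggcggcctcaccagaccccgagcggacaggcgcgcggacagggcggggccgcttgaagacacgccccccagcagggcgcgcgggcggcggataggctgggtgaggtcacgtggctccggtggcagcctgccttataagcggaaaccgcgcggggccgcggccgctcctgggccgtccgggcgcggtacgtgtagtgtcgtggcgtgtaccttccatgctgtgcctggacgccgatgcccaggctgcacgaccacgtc
Acss2: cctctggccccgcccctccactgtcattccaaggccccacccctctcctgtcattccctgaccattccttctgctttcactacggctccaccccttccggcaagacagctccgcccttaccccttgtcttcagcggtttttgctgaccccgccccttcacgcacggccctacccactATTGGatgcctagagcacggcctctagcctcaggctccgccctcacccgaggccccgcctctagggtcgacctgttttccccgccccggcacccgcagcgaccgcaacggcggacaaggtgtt
Acaca: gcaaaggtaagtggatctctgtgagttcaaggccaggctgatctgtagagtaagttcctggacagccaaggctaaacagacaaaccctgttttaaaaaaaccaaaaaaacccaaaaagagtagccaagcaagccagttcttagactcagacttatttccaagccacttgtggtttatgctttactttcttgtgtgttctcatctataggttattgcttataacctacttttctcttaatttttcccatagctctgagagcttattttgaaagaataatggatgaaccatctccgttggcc

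Hmgcs1 held 4 CCAAT matches and the TCACCCCAC element, which begins 137 bases before the start site. Cyp51, Insig1 and Acss2 held 1 CCAAT match each. The Acaca window, 1 start site of that gene, held none of the 4 motifs searched.

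The sorted cells were measured as a bulk sample, in which fewer cells of a type and less RNA per cell cannot be told apart. The values were log2 signals with sample medians from 4.63 to 4.69 over all probe sets, not over the genes ranked below. Of 9 measured fibroblast markers, 8 stood above the median gene, all but Pdgfra, which is itself a gene of the sorting gate. Of the 5 genes sorted against, 0 did. Of the measured markers, 2 of 7 for sebocytes, 3 of 8 for keratinocytes, 3 of 7 for adipocytes, 3 of 10 for immune cells, 3 of 10 for endothelium and 1 of 7 for melanocytes and Schwann cells stood above it. The summed signal of each of these lists overlapped between groups: sebocyte markers spanned 9.95 to 10.03 in vehicle and 9.81 to 10.10 after GW9662 (log2), and adipocyte markers 7.75 to 8.02 and 7.68 to 7.89. Cd34, a gene of the gate, measured 10.72 ± 0.15 in vehicle and 10.72 ± 0.04 after GW9662, and Pdgfra, the other, 4.86 ± 0.23 and 4.96 ± 0.17 (SD, n = 4 each). The values carried no detection calls, so it is not known which genes lay above background. Within the set, 7 sterol genes (among them Hmgcs1, Lss, Sqle and Msmo1) and 2 fatty acid genes (Acss2 and Elovl6) had a mean signal under that of the median gene.

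No gene of either arm differed between GW9662 and vehicle beyond the spread of the animals. In the limma test over all 17097 genes, 0 of 34 genes had an adjusted p under 0.05 (each adjusted p = 0.997, percent of all genes 0), and 0 of 34 had an unadjusted p under 0.05, beside 3.38% of all genes. The groups overlapped in all 34, where 1.75% of all genes had groups apart (1.05% lower and 0.708% higher). With same-numbered animals as pairs, 0 of 34 again had an unadjusted p under 0.05, beside 4.83% of all genes. In the sterol arm 14 genes were lower and 5 higher by any amount, with a median log2 difference of -0.07. Without vehicle 1 that median was -0.0042. In the fatty acid arm 7 were lower and 8 higher, with a median of 0.03, which was -0.06 without vehicle 4, -0.04 without GW9662 1 and -0.0090 with array weights. Over all genes the median was -0.0050, and 51.8% were lower and 47% higher. Msmo1 was the 1 gene lower in 4 of 4 pairs, beside 5.93% of all genes, and 0 were higher in 4 of 4, beside 5.46%. These counts hold for the brightest probe set of each gene. A dimmer probe set of Msmo1, Cyp51, Fads1 and Acsl3 was higher in 4 of 4 pairs. A dimmer one of Stard4, Hsd17b7, Sc5d and Acss2 was lower in 4 of 4.

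**Figure D1:**
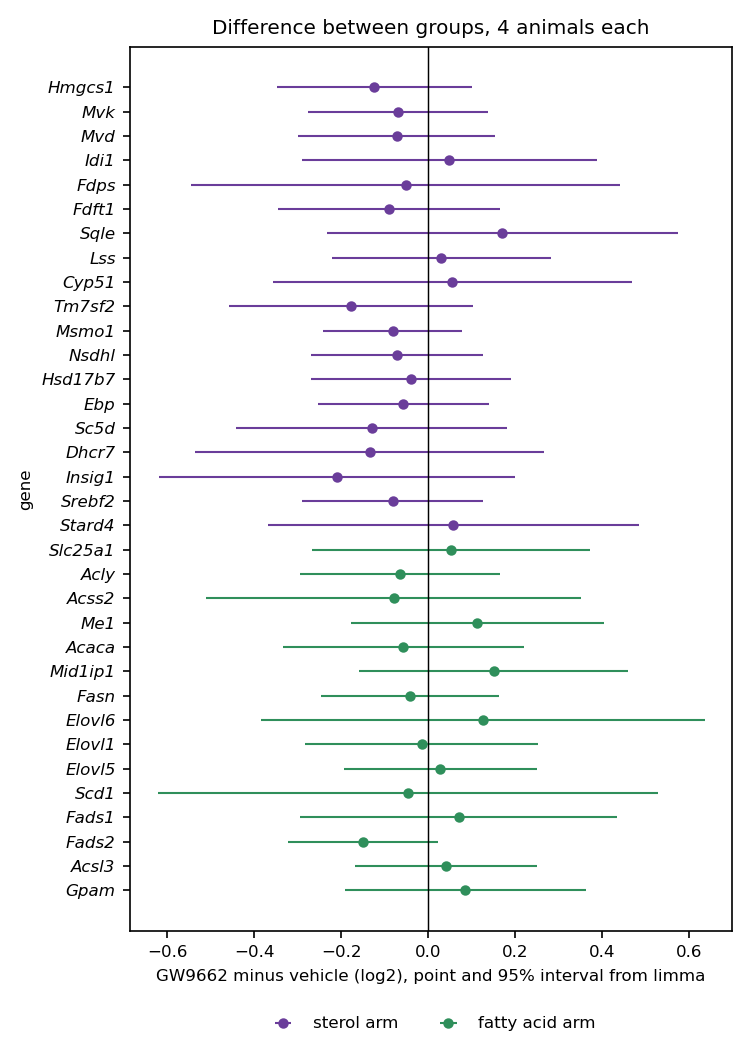
Difference between GW9662 and vehicle for each gene on the log2 scale (horizontal axis), as a point with its 95% interval from limma, with sterol genes in purple and fatty acid genes in green. Every interval contains 0, from Insig1 at -0.21 to Sqle at 0.17.

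The intervals show what size of difference these 8 arrays leave possible. The 95% interval lay within -0.5 and 0.5 for 27 of the 34 genes (15 sterol, 12 fatty acid), beside 95.2% of all genes. The exceptions were Fdps, Sqle, Dhcr7, Insig1, Acss2, Elovl6 and Scd1. The median SE was 0.115 in the sterol arm and 0.124 in the fatty acid arm, against 0.082 over all genes. These intervals rest on 4 animals per group.

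The sterol regulators come first. Srebf2, the gene of SREBP-2, measured 7.04, 6.66, 7.02 and 6.91 in vehicle animals 1 to 4 and 6.89, 6.73, 6.74 and 6.94 in GW9662 animals 1 to 4. The groups overlapped, and the log2 difference was -0.08 ± 0.09 (SE). The other Srebf2 probe set was at 0.035, and the mean of both was at -0.02. Insig1, the retention protein of SCAP and itself an SREBP target, measured 10.10, 9.20, 9.61 and 9.64 in vehicle and 9.52, 9.22, 9.19 and 9.78 after GW9662. Vehicle 1 was highest, GW9662 3 and both animals numbered 2 were lowest, and the groups overlapped. Its log2 difference of -0.21 ± 0.18 (SE) was the lowest of the 34, with a 95% interval from -0.62 to 0.20, and it lay between -0.36 and -0.06 with 1 animal left out. Stard4, a sterol carrier between membranes, measured 5.20 ± 0.41 in vehicle and 5.25 ± 0.26 after GW9662 (SD, n = 4 each).

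The early steps lead from acetyl-CoA to the isoprenoid units. Hmgcs1, HMG-CoA synthase, measured 3.98, 3.67, 4.00 and 3.71 in vehicle and 3.73, 3.68, 3.90 and 3.55 after GW9662. Its log2 difference was -0.12 ± 0.10 (SE), and it was lower in 3 of 4 pairs. Its 1 probe set stood at the 18.9th percentile of genes by signal. The kinase Mvk was at -0.07, the decarboxylase Mvd at -0.07, the isomerase Idi1 at 0.05 and the farnesyl diphosphate synthase Fdps at -0.05 (log2 differences). The signs of Mvd, Idi1 and Fdps turned in 1, 3 and 2 of up to 15 other settings.

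The committed steps to sterols begin with squalene. Sqle, squalene epoxidase and a rate-limiting enzyme of the pathway, measured 4.48, 4.17, 4.68 and 3.90 in vehicle and 4.87, 4.49, 4.39 and 4.16 after GW9662. It was higher in 3 of 4 pairs. With the brightest probe set of each gene, its log2 difference was the highest of the 34 (0.17 ± 0.18, SE). The 95% interval ran from -0.23 to 0.57. Squalene synthase, Fdft1, was at -0.09 and lanosterol synthase, Lss, at 0.03. Cyp51, the lanosterol demethylase, was at 0.06 with its main probe set and at 0.17 when its 3 probe sets were averaged.

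The later steps trim lanosterol to cholesterol. Tm7sf2, a sterol reductase, measured 6.38, 6.74, 6.53 and 6.29 in vehicle and 6.58, 6.39, 6.20 and 6.06 after GW9662. It was lower in 3 of 4 pairs, with a log2 difference of -0.18 ± 0.13 (SE) and the smallest unadjusted limma p of the sterol arm (0.189). Msmo1, a methyl sterol oxidase, measured 4.21, 4.24, 4.46 and 4.39 in vehicle and 4.17, 4.23, 4.30 and 4.27 after GW9662, a log2 difference of -0.08 ± 0.07 (SE). That direction belonged to 1 of its 2 probe sets: the other was at 0.16, and their mean was at 0.04. Sc5d, the lathosterol desaturase, measured 6.49, 6.28, 6.00 and 5.95 in vehicle and 6.17, 5.87, 5.85 and 6.31 after GW9662, a log2 difference of -0.13 ± 0.14 (SE). Only GW9662 4 stood above its partner. Dhcr7, which completes cholesterol, was at -0.13, Nsdhl at -0.07, Ebp at -0.06 and Hsd17b7 at -0.04 (log2 differences).

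In the fatty acid arm the carbon supply genes overlapped between groups. Slc25a1, the mitochondrial citrate carrier, was at 0.05, and Acss2, which activates acetate, at -0.08 (log2 differences). The other Acss2 probe set was at -0.23, and the mean of both was at -0.15. Acly, the ATP citrate lyase that yields cytosolic acetyl-CoA, measured 8.43, 8.38, 8.77 and 8.62 in vehicle and 8.56, 8.54, 8.58 and 8.26 after GW9662. Its lowest value was that of GW9662 4, and vehicle 3 was highest. Its log2 difference was -0.07 ± 0.10 (SE). Me1, the malic enzyme that supplies NADPH, measured 6.45, 6.42, 6.34 and 5.92 in vehicle and 6.21, 6.27, 6.64 and 6.46 after GW9662, a log2 difference of 0.11 ± 0.13 (SE) with 2 pairs each way.

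The chain-building enzymes likewise overlapped. Fasn, fatty acid synthase, measured 7.37, 6.97, 7.02 and 6.95 in vehicle and 7.05, 7.04, 6.99 and 7.06 after GW9662. Apart from vehicle 1 the animals lay within 6.95 to 7.06, and the log2 difference was -0.04 with a 95% interval from -0.25 to 0.16. Acaca, the acetyl-CoA carboxylase of lipid synthesis, was at -0.06. Mid1ip1, which promotes the assembly of that enzyme, measured 9.38, 9.15, 9.20 and 8.67 in vehicle and 9.44, 9.10, 9.19 and 9.27 after GW9662. Its log2 difference of 0.15 ± 0.14 (SE) was 0.0067 without vehicle 4. The elongases Elovl6, Elovl1 and Elovl5 were at 0.12, -0.02 and 0.03.

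Among desaturases and acyl transfer genes, Fads2, which starts the synthesis of long polyunsaturated fatty acids, had the smallest unadjusted limma p of all 34 genes (0.0822). Its probe set, like those of Elovl5, Mvd and Acsl3, is of a class whose probes may also match other transcripts. Fads2 measured 6.48, 6.19, 6.38 and 6.48 in vehicle and 6.16, 6.25, 6.20 and 6.32 after GW9662. Animal 2 of the vehicle group lay among the treated animals, and the log2 difference was -0.15 ± 0.08 (SE), from -0.21 to -0.12 with 1 animal left out. Fads1, its partner desaturase, was at 0.07 with its brighter probe set, at 0.30 with the other and at 0.19 as their mean. Scd1, the stearoyl-CoA desaturase, had the widest spread of the set, at 8.93, 8.68, 8.23 and 7.55 in vehicle and 8.33, 8.50, 7.92 and 8.45 after GW9662. Vehicle animals held both its highest and its lowest value, and its log2 difference of -0.05 had a 95% interval from -0.62 to 0.53. Gpam, which starts glycerolipid synthesis in mitochondria, measured 6.74, 6.92, 7.34 and 7.19 in vehicle and 6.98, 7.27, 7.17 and 7.11 after GW9662 (log2 difference 0.08 ± 0.12, SE). Its other probe set was at -0.02. Acsl3, an acyl-CoA synthetase, was at 0.04.

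The genes were also compared between animals of different replicate number. The design text pairs collection: on a given day 1 animal per group was sacrificed. Whether equal numbers mark the same day is not given in the labels, but same-numbered animals deviated together over all genes (r = 0.203, 0.163, 0.114 and 0.165 for pairs 1 to 4, beside -0.188 to 0.159 for animals of different number), and they are called pairs here. In a limma F test for differences between the 4 pairs, a test chosen after the values had been seen, 0 of 34 genes passed adjustment over all genes (smallest adjusted p = 0.349), as did 0 of all genes. Below an unadjusted p of 0.05 lay 17 of 34 genes, 11 of 19 sterol and 6 of 15 fatty acid, beside 9.1% of all genes. Pairs took a median of 78.0% of the within-group sum of squares in the sterol arm and 59.2% in the fatty acid arm, beside 55.8% over all genes. Pair 1 had the highest pair mean in 22 of 34 genes (14 sterol, 8 fatty acid), beside 18.1% of all genes, and pair 4 the lowest in 20 of 34 (10 of each arm), beside 26.8%. Without pair 1 the count at an unadjusted p under 0.05 was 9 of 34, beside 7.93% of all genes.

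**Figure D2:**
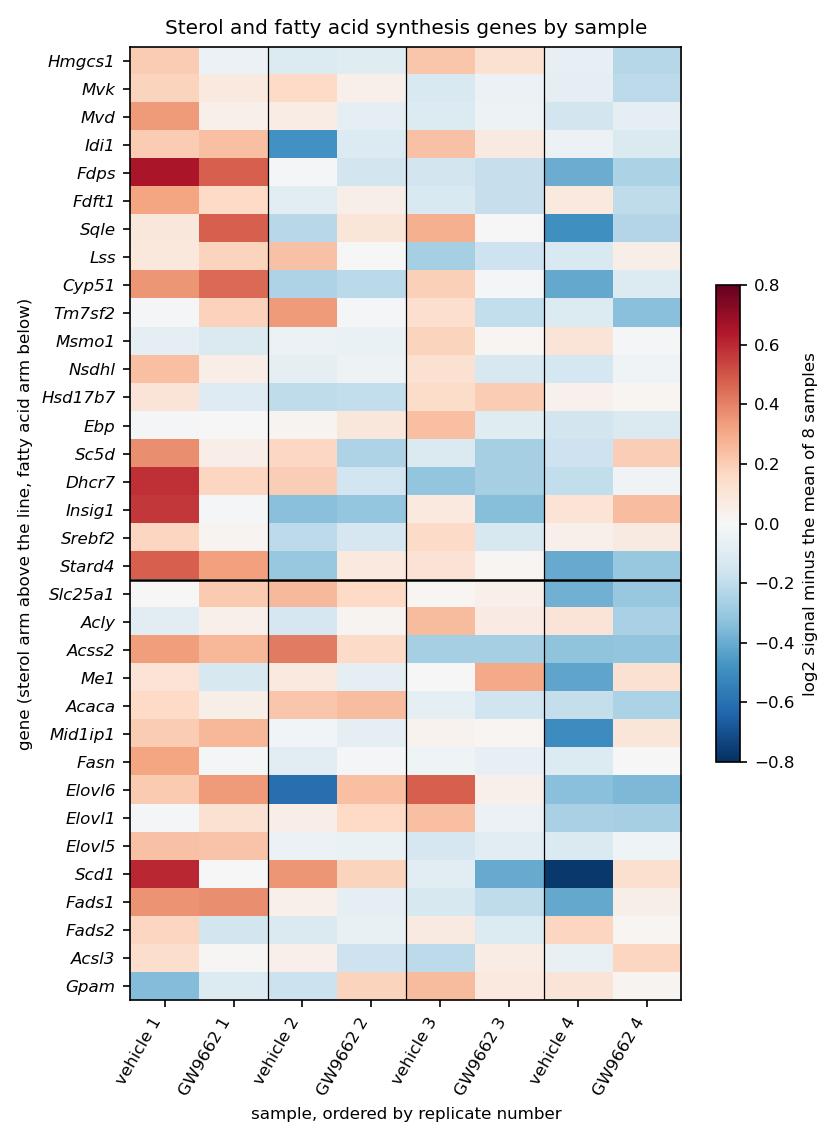
Log2 signal of each gene minus its own mean over 8 samples (colour, red above and blue below), with genes in pathway order in rows and animals ordered by replicate number in columns. The first columns, vehicle 1 and GW9662 1, are mostly red in the sterol arm above the line.

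Fdps, with the smallest p between pairs, measured 6.22 and 6.04 in vehicle 1 and GW9662 1, and 5.55, 5.42 and 5.17 in vehicle 2 to 4 and 5.42, 5.38 and 5.31 in GW9662 2 to 4. Both animals of pair 1 thus stood above all others, by a mean of 0.76 on the log2 scale or 1.69-fold. The pairs took 96.9% of its within-group sum of squares. In the limma F test its adjusted p was 0.349 (unadjusted, 1.68e-04). Without pair 1 its unadjusted p was 0.141.

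Cyp51 measured 8.15 and 8.25 in pair 1 and 7.39 to 7.99 in the other 6 animals. Stard4 measured 5.70 and 5.55 in pair 1 and 4.82 to 5.34 in the others. Their pair 1 means were higher by 0.54 each on the log2 scale, or 1.45-fold. Dhcr7 was higher in pair 1 by 0.51, and Fads1, at 8.60 and 8.61 against 7.83 to 8.29, by 0.49. In all, both animals of pair 1 stood above the 6 others in 7 of 34 genes (Fdps, Fdft1, Cyp51, Stard4, Mid1ip1, Elovl5 and Fads1), beside 2.32% of all genes.

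A different pattern was seen in Acss2, at 5.35 and 5.28 in pair 1, 5.43 and 5.17 in pair 2, 4.75 and 4.75 in pair 3 and 4.69 and 4.70 in pair 4 (vehicle first). With this brighter probe set, pairs 1 and 2 were high and pairs 3 and 4 low, in both groups. The unadjusted limma p for pairs was 3.49e-04 (adjusted p = 0.361), and 0.0023 without pair 1. Acaca showed the same split with its brighter probe set, at 6.99 and 6.88, 7.05 and 7.08, 6.76 and 6.67, and 6.64 and 6.58. The other probe set of either gene did not show it. In that of Acaca, pair 2 (5.4 and 5.39) lay below vehicle 3 (5.57) and GW9662 4 (5.62). In that of Acss2, GW9662 1 and 2 (4.73 and 4.8) lay below GW9662 4 (4.85).

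Gpam ran the other way with its brighter probe set, with pair 1 lower than the other pairs by 0.31 on the log2 scale. Its other probe set was higher in pair 1 by 0.055. Msmo1 was lower in pair 1 by 0.12 with its brighter probe set, while its other probe set was higher there by 0.33. The endothelial marker list was low in pair 1, with a summed signal of 8.31 and 8.51 (log2) against 8.82 to 9.35 in the others, with 3 of its 10 measured genes above the median gene. The ranges of the immune (9.32 to 9.43 in pair 1, 9.11 to 9.33 in the others) and sebocyte lists (9.83 to 9.95 and 9.81 to 10.10) overlapped. By pair, vehicle first, the immune list stood at 9.43 and 9.32, 9.33 and 9.32, 9.11 and 9.12, and 9.15 and 9.19. It was thus higher in pairs 1 and 2 than in pairs 3 and 4, in both groups. The part of these cells in the pair differences was not tested.

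**Figure D3:**
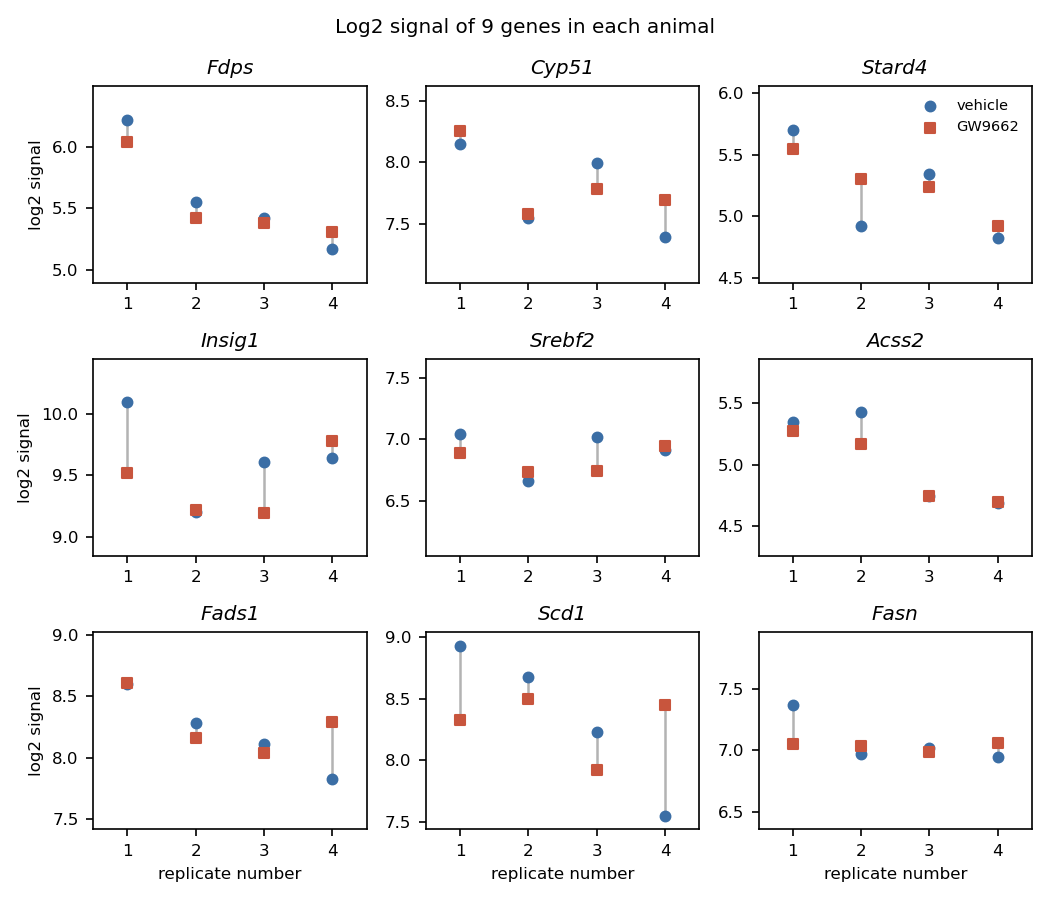
Log2 signal (vertical axis, each panel spanning 1.6 units) of 9 genes in each animal by replicate number, vehicle as blue circles and GW9662 as red squares, joined within pairs. Fdps is highest in both animals of pair 1, Acss2 is high in pairs 1 and 2, and Scd1 is spread from 7.55 to 8.93.

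Averaged over genes, each taken as its deviation from its own mean, the sterol arm stood at 0.256, -0.061, 0.048 and -0.134 in vehicle animals 1 to 4 and at 0.139, -0.075, -0.085 and -0.088 in GW9662 animals 1 to 4. The group means were 0.027 ± 0.170 and -0.027 ± 0.111 (SD, n = 4 each). The 2 animals of pair 1 were the 2 highest, and the GW9662 animal was below its partner in 3 of 4 pairs.

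The fatty acid arm stood at 0.160, 0.019, 0.027 and -0.233 in vehicle and at 0.101, 0.055, -0.049 and -0.079 after GW9662. Pair 1 was again highest and vehicle 4 lowest, with 2 pairs each way. The sterol arm minus the fatty acid arm was 0.034 ± 0.084 in vehicle and -0.034 ± 0.071 after GW9662 (SD, n = 4 each), and the groups overlapped. Within pairs 1 to 4, GW9662 minus vehicle of this contrast was -0.057, -0.051, -0.058 and -0.108, lower in 4 of 4 pairs, with a mean of -0.068 ± 0.026 (SD, n = 4 pairs). With probe sets averaged per gene it was 0.032, -0.042, -0.075 and -0.126, lower in 3 of 4 pairs, with a mean of -0.053 ± 0.066. No test was made of this difference, since the genes were chosen with earlier results known.

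**Figure D4:**
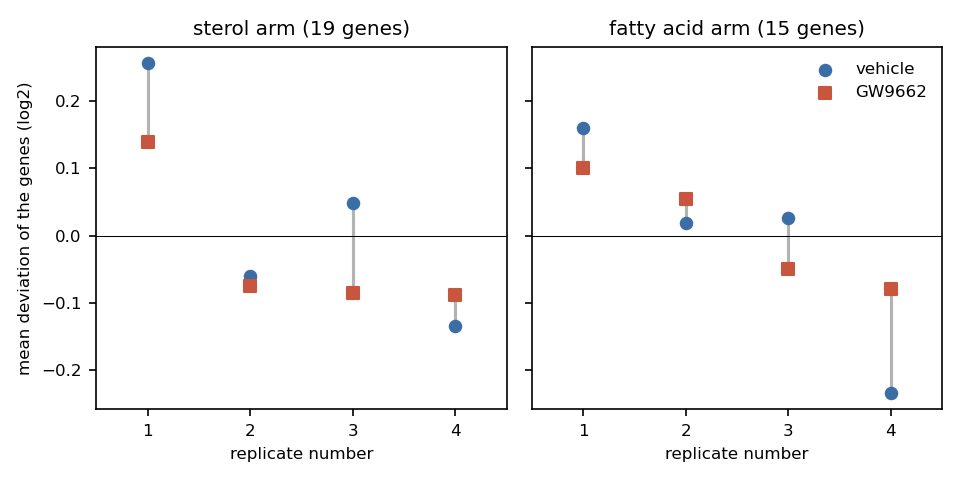
Mean deviation of the genes of each arm from their own means (log2, vertical axis) in each animal by replicate number, vehicle as blue circles and GW9662 as red squares, joined within pairs. Pair 1 stands highest in both arms, at 0.256 and 0.139 in the sterol arm.

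Genes of the 2 arms varied together to a limited degree. After removal of group means, the median Pearson correlation over 8 samples was 0.345 for the 171 pairs of sterol genes, 0.269 for the 105 pairs of fatty acid genes and 0.308 for the 285 pairs across arms, beside 0.006 for all pairs of genes. These are descriptions, since all genes share the same arrays. Fdps had the highest median correlation with its own arm (0.604), followed by Nsdhl (0.560) and Stard4 (0.517), and in the fatty acid arm Scd1 (0.514) and Mid1ip1 (0.493) led. Insig1 and Srebf2 correlated at 0.895, and Fdps with Elovl5 at 0.963. Msmo1 (-0.354), Gpam (-0.486), Acly (-0.257) and Fads2 (-0.175) had negative medians. With pair means removed too, the medians were 0.169, 0.052 and 0.175. Without vehicle 1 the sterol median was 0.201 and the fatty acid median 0.135, and without vehicle 4 the latter was 0.099.

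**Figure D5:**
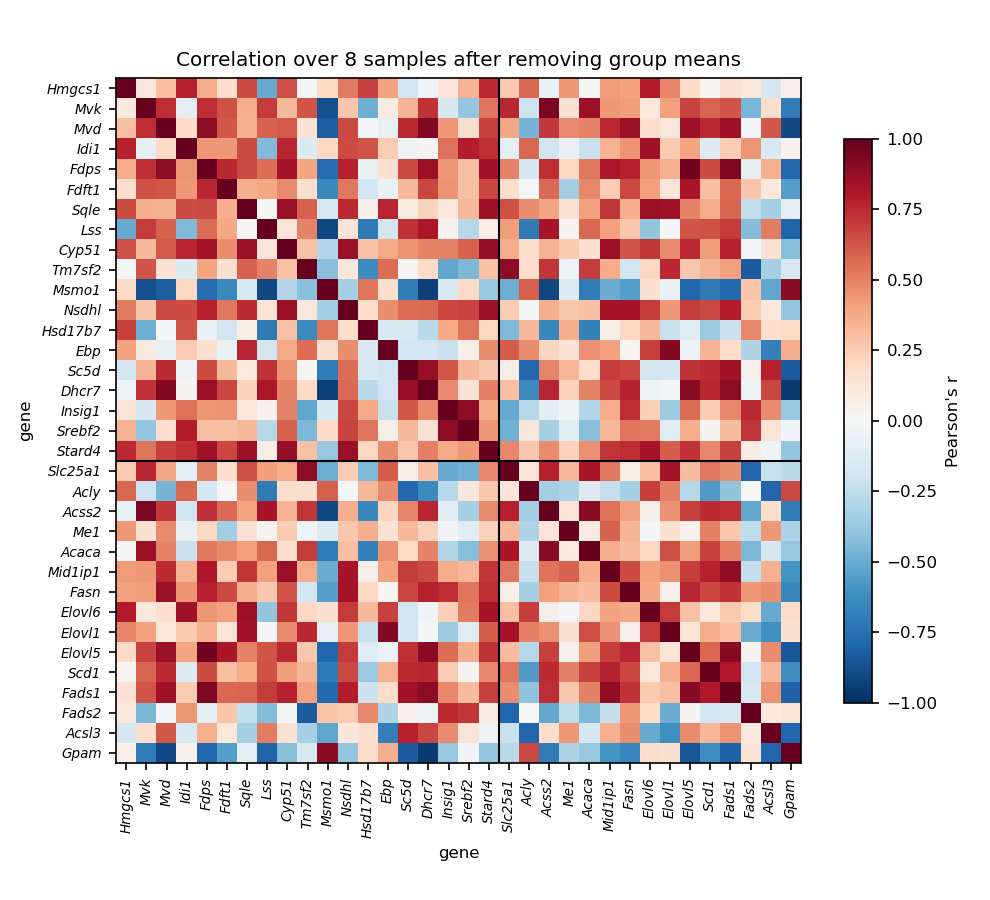
Pearson correlation over 8 samples, after removal of group means, between the 34 genes in pathway order on both axes (red positive, blue negative; lines part the sterol from the fatty acid arm). The rows of Msmo1 and Gpam are mostly blue, and the 2 arms are not set apart from each other.

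Several genes had more than 1 probe set, 62 in all for the 34 genes. Of the 21 genes with over 1, the probe sets had the same sign of the difference between GW9662 and vehicle in 13 and the same sign of pair 1 minus the other pairs in 15. Cyp51, with 3 probe sets, was higher in pair 1 by 0.54, 0.46 and 0.29, and Sc5d, also with 3, by 0.29, 0.41 and 0.29 (log2). The 2 probe sets of Scd1 gave 0.41 and 0.44, and those of Elovl5 0.31 and 0.50. Those of Gpam went opposite ways (-0.31 and 0.055), as did those of Msmo1.

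Other genes of the pathways, from lists chosen with earlier results known, gave no call over all genes in limma either. Of the SREBP control genes, 4 of 7 measured were lower and 3 higher (median log2 difference -0.02). Scap, the escort protein, was at -0.14 ± 0.09 (SE) and Erlin1 at 0.10 ± 0.10. Mbtps2, a protease that frees SREBP, was at -0.13 ± 0.10 (-0.03 as a mean over probe sets). Of other sterol synthesis genes 1 of 5 was measured, Ggps1, at -0.10 ± 0.08 with its main probe set and 0.01 with the mean of all. Of sterol uptake, transport and efflux genes, 6 of 13 were lower and 7 higher (median 0.04). Scarb1, the HDL receptor, was at -0.19 ± 0.07, the liver X receptor gene Nr1h3 at -0.16 ± 0.10 and Osbp, an oxysterol-binding protein, at 0.14 ± 0.10. Of other fatty acid and glycerolipid genes, 10 of 20 were lower and 10 higher, with the elongase Elovl4 at -0.28 ± 0.09 (-0.14 as a mean over probe sets), Aacs, which activates acetoacetate for lipid synthesis, at 0.26 ± 0.11 and Dgat2, which makes triglycerides, at 0.15 ± 0.09. Of the uptake, transport and efflux genes, 2 of 13 were lower in 4 of 4 pairs, among them Nr1h3, and 1 was higher, Osbp. Of the other fatty acid and glycerolipid genes, 1 of 20 was lower in 4 of 4 pairs, Elovl4, and 2 were higher, among them Aacs. Over all genes 5.93% were lower and 5.46% higher in 4 of 4 pairs. Below an unadjusted limma p of 0.05 lay 0 of 7, 0 of 1, 1 of 13 (Scarb1) and 2 of 20 (Elovl4 and Aacs) genes of these lists, beside 3.38% of all genes. Differences between pairs had an unadjusted p under 0.05 in 0 of 7, 0 of 1, 4 of 13 and 2 of 20, beside 9.1%. Pparg, the gene of the inhibited receptor, measured 4.88 ± 0.23 in vehicle and 4.85 ± 0.27 after GW9662 (SD, n = 4 each).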

How the data were processed

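The deposited values were log2 signals of 45141 probe sets in 8 samples, made by the authors with RMA and the affy package, per the submitters' processing notes, without versions. RMA equalises the distributions of arrays. The base of the logarithm was read from the range of the deposited values (2.44 to 12.96). The platform annotation gave 1 gene for 28898 probe sets and several for 551, which were left out, while 15692 were unnamed here. This left 17097 genes. GW9662 minus vehicle was fitted over all of them with limma 3.58.1 in R 4.3.3 (lmFit, eBayes, two-sided, Benjamini-Hochberg, threshold 0.05), and the genes of the set were read from that fit. The fit was tested on simulated data. Array settings are not given in the sources used here. Same-numbered samples were read as pairs, since each pair's deviations correlated over 0.1 (0.114 to 0.203), and each vehicle sample correlated best with its own number. Differently numbered samples correlated at -0.188 to 0.159, so the ranges overlapped. A fit with the number as a block was run beside the main one. Samples correlated at 0.990 to 0.997 over genes and were counted as separate. Values are given for the 34 listed genes, in every sample for those of smallest p, the regulators, Scd1 and Fasn. Genes shown for pair differences were chosen after the values had been seen. The members and lists were chosen with earlier results of these data known. Promoter sequences came from RefSeq. The number of arrays limits the precision.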

Additional observations from a re-analysis of the deposited data

Results flagged for a closer look

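Values far from the rest of their group of 4 were tested in 72 groups by the gap to the nearest other value, and 5 were found. Chance gives about 1 in 20 groups. GW9662 1 was far above its group in Fdps (6.04), in Elovl5 (9.81) and in the mean level of the sterol arm (0.139). Vehicle 1 was far above its group in Fasn (7.37), and GW9662 4 far below its group in Acly (8.26).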

How the results depend on the processing

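In no other setting did any of the 34 genes pass limma's adjusted threshold between GW9662 and vehicle, with the replicate block, without any 1 animal or pair, or at an adjusted p under 0.1, and the block changed no call. The sign of the difference held in all of up to 15 other settings for 10 of the 34 genes, 8 sterol and 2 fatty acid, and turned in at least 1 for the other 24. Of 501 values under these settings, 10 were moved by 1 SD of the pair differences or more. With 1 animal left out, the fatty acid arm's median log2 difference lay between -0.055 and 0.061, and the mean level of the sterol arm in pair 1 minus the other pairs between 0.205 and 0.321. The median correlation within the sterol arm was 0.498 with probe sets averaged per gene and 0.169 with the replicate block, and lay between 0.201 and 0.457 with 1 animal left out. Within the fatty acid arm it was 0.441, 0.052 and 0.099 to 0.333, and between arms 0.444, 0.175 and 0.206 to 0.394, in the same order. The count of genes at an unadjusted p under 0.05 between pairs was 9 without pair 1 and 14 to 17 without another pair, with the mean of probe sets or after renewed scaling. The sterol minus fatty acid contrast, GW9662 minus vehicle, had a mean within pairs of -0.101 over the 25 genes above the median level, lower in 4 of 4 pairs. Its alternatives, fits without pairs and the test between pairs were added after the values had been seen. Without detection calls, how far the dim genes of the set lay above background is not known.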
